A study of Mus musculus with 16 samples.

Results

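Cholangiocytes are the epithelial cells that line the bile ducts, and 9 genes that mark them or the ductular cells that appear in injured liver were followed here in mouse liver. The 9 genes were taken by symbol from a table of 23420 genes: Krt7, Krt19, Epcam, Sox9, Tm4sf4, Cftr, Cldn7, Krt23 and Cd24a. They were chosen for what they mark and not for their values, although earlier results of these data were known.

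RNA sequencing covered the livers of 16 male wild-type mice (C57BL/6J), all of which ate a 45% high-fat diet (HFD). In 8 of them the diet also held 0.04% fenretinide (FEN-HFD), a synthetic retinoid that limits obesity and fatty liver in mice. The 4 groups of 4 mice were FEN-HFD for 20 weeks, HFD for 20 weeks, FEN-HFD for 7 days and HFD for 7 days. No age is given in the labels, and mice on a lean diet were not analysed here. Different mice were fed for 20 weeks and for 7 days, and the labels name no cohort, so length of feeding cannot be told apart from any difference in age or cohort.

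In the adult liver the bulk of the RNA comes from hepatocytes, and bile duct cells make up a small share of the tissue. Keratins 7 and 19 form the intermediate filaments of duct epithelium, and EpCAM is an adhesion protein of its surface. SOX9 is a transcription factor of duct cells and of some hepatocytes beside the ducts, and its expression depends on Notch and Hippo signalling. When the liver is injured, ducts can multiply and hepatocytes can gain some of these genes, a process known as the ductular reaction. A higher or lower level in whole liver can come from more or fewer cells of a type or from more or less RNA per cell, and these cannot be told apart in bulk samples.

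The promoters of the genes on which the comparisons turned are shown first, because 3 of them, Tm4sf4, Krt23 and Epcam, had their lower means in FEN-HFD livers together and Cldn7 held the motif that retinoid receptors bind. RefSeq, on GRCm38.p6, gave a promoter for 6 of the 9 genes, with 7 promoters in all since Cldn7 had a pair of start sites. The windows are the 250 bases before the RefSeq start, read 5′ to 3′ on the strand of the gene and ended where the GENCODE gene begins. They lie at chr3:57425160-57425313 for Tm4sf4 (154 bases, plus strand), chr11:99493138-99493370 for Krt23 (233 bases, minus strand), chr17:87635729-87635978 for Epcam (250 bases, plus strand) and chr11:69964529-69964778 for the first start of Cldn7 (250 bases, plus strand). Capitals mark matches to the motifs searched.
Tm4sf4: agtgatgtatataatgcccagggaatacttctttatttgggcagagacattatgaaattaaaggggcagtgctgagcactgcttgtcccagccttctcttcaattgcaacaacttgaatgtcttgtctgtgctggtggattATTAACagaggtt
Krt23: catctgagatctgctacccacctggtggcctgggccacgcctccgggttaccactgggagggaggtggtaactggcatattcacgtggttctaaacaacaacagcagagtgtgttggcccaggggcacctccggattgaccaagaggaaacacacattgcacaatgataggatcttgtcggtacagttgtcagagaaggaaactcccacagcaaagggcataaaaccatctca
Epcam: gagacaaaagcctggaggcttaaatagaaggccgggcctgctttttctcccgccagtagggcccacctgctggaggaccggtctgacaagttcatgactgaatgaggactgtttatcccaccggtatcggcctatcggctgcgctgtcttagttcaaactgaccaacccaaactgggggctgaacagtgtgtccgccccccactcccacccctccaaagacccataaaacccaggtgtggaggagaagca
Cldn7: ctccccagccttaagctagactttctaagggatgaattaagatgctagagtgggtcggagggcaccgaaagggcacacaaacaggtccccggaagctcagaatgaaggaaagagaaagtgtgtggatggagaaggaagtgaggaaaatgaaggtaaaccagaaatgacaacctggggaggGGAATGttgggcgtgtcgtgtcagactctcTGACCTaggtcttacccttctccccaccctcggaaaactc

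Both strands of the 250 bases were searched for AGGTCA (a half-site of retinoid and other nuclear receptors), GTTAAT (a half-site of HNF1 factors), GGAATG (TEAD factors) and TGGGAA (RBPJ, the nuclear partner of Notch). These 4 motifs do not contain one another. AGGTCA was found in 2 of the 7 member promoters, both of Cldn7, and in 14.0% of all 32851 promoters. In the window printed for Cldn7 it reads TGACCT on the printed strand and its first base lies at position -40 from the start, with GGAATG at -70. GGAATG was in 1 of the 7 and in 12.6% of all promoters. TGGGAA was also in 1 of the 7, the second Cldn7 promoter, and in 21.6% of all. GTTAAT was in 1 of the 7, as ATTAAC at -109 in Tm4sf4, and in 6.43% of all promoters. The windows of Krt23, Epcam, Krt7 and Cftr held none of these letters, which says nothing about the factors themselves.

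The 9 genes lie on 6 chromosomes of mm10 and are all protein coding in GENCODE M21. Krt19 (chr11:100140810-100148665) and Krt23 (chr11:99477974-99493137) belong to the keratin cluster of chromosome 11 and are read from the minus strand. Cldn7 (chr11:69964779-69967885) and Sox9 (chr11:112782224-112787760) are on the plus strand of that chromosome. Tm4sf4 is at chr3:57425314-57441677, Epcam at chr17:87635979-87651129, and Cd24a at chr10:43578284-43584265. Krt7 (chr15:101411043-101430313) overlaps the gene Gm671 on the other strand, and Cftr (chr6:18170687-18322768) overlaps Gm15595 on its own strand and Gm15592 on the other. Whether counting used strand is not given in the sources used here, so reads of Krt7 or Cftr cannot be told apart from those of their overlapping genes. Of the 50-base stretches of Cd24a transcripts, 2.75% also occur in Gm6212. How reads of such stretches were counted is not given, so their effect on the Cd24a level is not known.

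Total counts were 19218230 to 32546829 per library. A pair of libraries stood apart. FEN-HFD mouse 29 (20 weeks) had 53.1% of its counts on Rn45s, a ribosomal RNA precursor, and 4.36% on Lars2, whereas the other 15 libraries had 0.466% to 1.46% on Rn45s and 0.00173% to 0.0499% on Lars2. In that liver the summed markers of B cells and Kupffer cells, at 28.4 and 830 CPM (counts scaled to a common library total), were the highest of its group, the remaining FEN-HFD livers having 2.31 to 5.42 and 353 to 432 CPM. HFD mouse 143 (7 days) had the highest summed Kupffer cell markers of its group, at 870 CPM against 394 to 468 CPM in the other HFD mice of 7 days. Several results that rest on either library are given with and without it. The difference of Cldn7 and the sums of duct markers at 7 days are given with all livers only. At 20 weeks mouse 29 had 10 counts of Krt7, 4 of Krt19 and 6 of Epcam. Over 16 alternative fits, which include leaving out each mouse, their log2 differences at 20 weeks kept their direction. They ran from -0.73 to -0.34 for Krt7, -1.11 to -0.64 for Krt19 and -1.59 to -0.91 for Epcam, and none passed the threshold. Hepatocyte markers such as albumin were abundant in every library. At 20 weeks the 9 listed summed to 45089 to 61130 CPM in FEN-HFD and 66447 to 75998 CPM in HFD livers. At 7 days they summed to 51927 to 60149 CPM in FEN-HFD and 58562 to 74322 CPM in HFD livers.

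The duct markers were scarce in these livers, with one exception. Levels are given as CPM scaled by TMM factors, and as CPM per kilobase of coding-transcript exon where genes are compared. Per kilobase, the mean over 16 livers was 53.5 for Tm4sf4, 3.84 for Krt23, 1.81 for Cd24a, 0.909 for Krt19, 0.737 for Epcam, 0.328 for Sox9, 0.211 for Krt7, 0.208 for Cldn7 and 0.0246 for Cftr. Tm4sf4, a tetraspanin-like membrane protein listed here as a marker of duct epithelium, made up 83.9% of the CPM of the 9 genes. Bulk liver does not show which cells made it. With group means subtracted, its Pearson r with the other tested markers ran from -0.29 (Sox9) to 0.37 (Epcam), with 0.04 for Krt19. For Krt23 the same r ran from -0.66 (Cd24a) to 0.17 (Epcam). The cells that made either RNA were not tested, and differences in Tm4sf4 or Krt23 are not read as differences in duct cells. Tm4sf4 stood above Krt23 per kilobase in 16 of 16 livers. Krt19 and Epcam held their order in 9 of 16 livers and Krt7 and Cldn7 in 9 of 16, so these neighbours did not differ beyond their spread. With exons of all annotated transcripts as the length, Krt7 (0.123 CPM per kilobase) came below Cldn7 (0.158 CPM per kilobase).

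**Figure D1:**
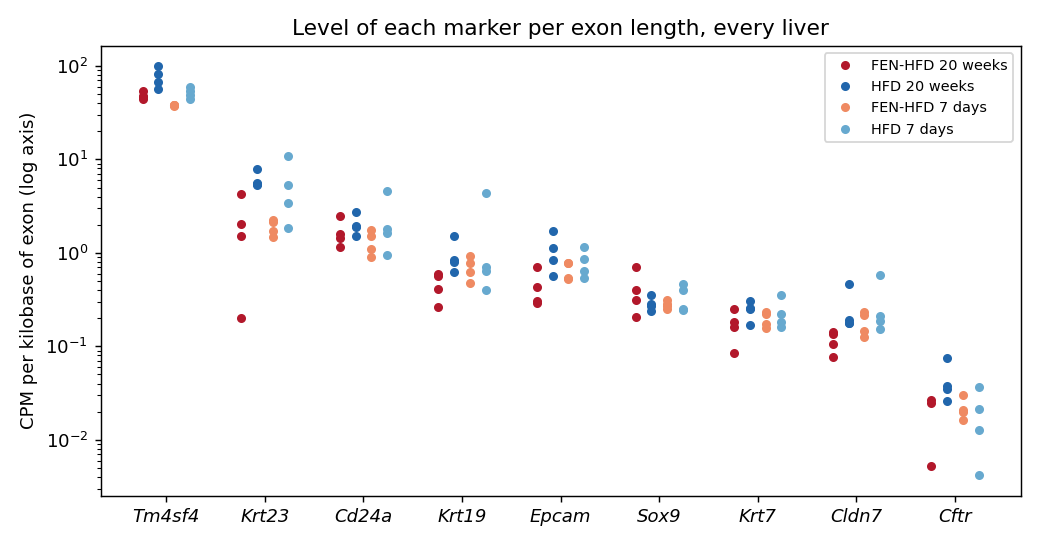
CPM per kilobase of exon (log axis) for each of the 9 markers in every liver, coloured by group, with genes in the order of their mean over the 16 livers. Tm4sf4 averaged 53.5 and Cftr 0.0246, and the Cftr value of 0 in FEN-HFD mouse 29 cannot be drawn on this axis.

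Does fenretinide given with the HFD for 20 weeks change the level of duct markers? Of the 7 markers with enough counts for the test, 6 had a lower mean in FEN-HFD than in HFD livers and Sox9 a higher one. None passed the threshold of an adjusted p under 0.05 in edgeR. Tm4sf4 came nearest, at 0.637 times its HFD level. Krt23, Epcam and Krt19 had the lower ratios, between 0.346 and 0.513.

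Tm4sf4 was measured at 71.5, 70.3, 80.7 and 66.9 CPM in FEN-HFD livers (mice 21, 22, 24 and 29) and at 121, 148, 99.9 and 84.7 CPM in HFD livers (mice 25, 28, 33 and 45) at 20 weeks. All 4 FEN-HFD livers lay below all 4 HFD livers. The means were 72.3 ± 5.90 CPM in FEN-HFD and 114 ± 27.5 CPM in HFD livers (SD, n = 4 each), a log2 difference of -0.65 (SE 0.16) with an edgeR adjusted p of 0.0747. The adjusted p was 0.00685 with DESeq2, 0.0241 with limma-voom, and 0.0341 in edgeR without HFD mouse 45, the HFD liver with the lowest Tm4sf4, so the call depended on the tool and on 1 library. Summed hepatocyte markers were lower in the same FEN-HFD livers, and Alb (mean 51035 CPM in HFD livers) made up most of that sum. Of the 9 hepatocyte genes 6 had a lower mean, among them Alb (0.679 times its HFD level), Ttr (0.720) and, barely, Hnf4a (0.992). Others were higher, such as Apoa1 (1.31) and Tat (1.47). The part of hepatocytes in the Tm4sf4 difference was not tested.

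Krt23, a type I keratin that is low in healthy liver and rises in ductular reactions and in stressed hepatocytes, was at 2.36, 6.65, 3.16 and 0.312 CPM in FEN-HFD livers and 8.52, 8.24, 12.5 and 8.73 CPM in HFD livers. The groups did not overlap, and mouse 29, with only 3 counts, was the lowest of the 16. The means were 3.12 ± 2.64 CPM in FEN-HFD and 9.50 ± 2.01 CPM in HFD livers (SD, n = 4 each), with a log2 difference of -1.53 (SE 0.53) and an edgeR adjusted p of 0.177. Leaving out each mouse in turn gave -2.18 (without mouse 22, adjusted p = 0.0903) to -1.22 (without mouse 29, adjusted p = 0.106). DESeq2 gave Krt23 an adjusted p of 0.0458 and limma-voom 0.0511.

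Epcam was at 0.898, 1.45, 0.603 and 0.624 CPM in FEN-HFD livers and 1.74, 3.50, 1.18 and 2.30 CPM in HFD livers. Mouse 22 of the FEN-HFD group overlapped mouse 33 of the HFD group. The log2 difference was -1.24 (SE 0.40), with an edgeR adjusted p of 0.143. Krt19 was at 0.898, 0.939, 0.653 and 0.416 CPM in FEN-HFD livers and 1.32, 1.27, 0.981 and 2.38 CPM in HFD livers, without overlap. Its log2 difference was -0.96 (SE 0.35), with an edgeR adjusted p of 0.189. These values rest on 6 to 113 counts per library for Epcam and 4 to 59 for Krt19.

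Krt7 and Cd24a differed less, and Sox9 ran the other way. Krt7 averaged 0.701 ± 0.283 CPM in FEN-HFD and 1.00 ± 0.235 CPM in HFD livers (SD, n = 4 each; log2 difference -0.56, SE 0.35, edgeR adjusted p = 0.420). Cd24a, a small glycosylated surface protein of duct and progenitor cells and also of immature B cells, averaged 3.41 ± 1.18 CPM in FEN-HFD and 4.10 ± 1.03 CPM in HFD livers (SD, n = 4 each; log2 difference -0.30, SE 0.26, edgeR adjusted p = 0.588). In mouse 29, where B cell markers were also highest, Cd24a was at 5.09 CPM, and the 3 remaining FEN-HFD livers had 2.39 to 3.25 CPM. The part of B cells in that value was not tested. Leaving out each mouse in turn gave a Cd24a difference of -0.52 (without mouse 29, adjusted p = 0.199) to -0.11 (without HFD mouse 28, adjusted p = 0.869). Sox9 was at 1.31, 1.64, 0.854 and 2.91 CPM in FEN-HFD livers and 1.47, 0.992, 1.11 and 1.17 CPM in HFD livers. Its log2 difference of 0.44 (SE 0.35, edgeR adjusted p = 0.540) was 0.12 without mouse 29, the liver with the highest Sox9, and 0.67 without mouse 24, the liver with the lowest.

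Cftr, the chloride channel of the duct surface, and Cldn7, a tight junction protein, had too few counts to pass the filter in any comparison. Cftr had 5, 1, 4 and 0 counts in FEN-HFD livers and 7, 9, 6 and 14 counts in HFD livers at 20 weeks. The count of 0, in mouse 29, allows up to 0.312 CPM, a limit that covers counting error only and lies above the 0.264, 0.279 and 0.196 CPM of HFD mice 25, 28 and 33. Cldn7 had 3, 4, 4 and 2 counts in FEN-HFD and 7, 22, 8 and 7 counts in HFD livers, and its CPM values did not overlap. With no filter on low counts the edgeR log2 difference was -1.41 for Cftr (SE 0.68, adjusted p = 0.366) and -1.18 for Cldn7 (SE 0.52, adjusted p = 0.319).

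**Figure D2:**
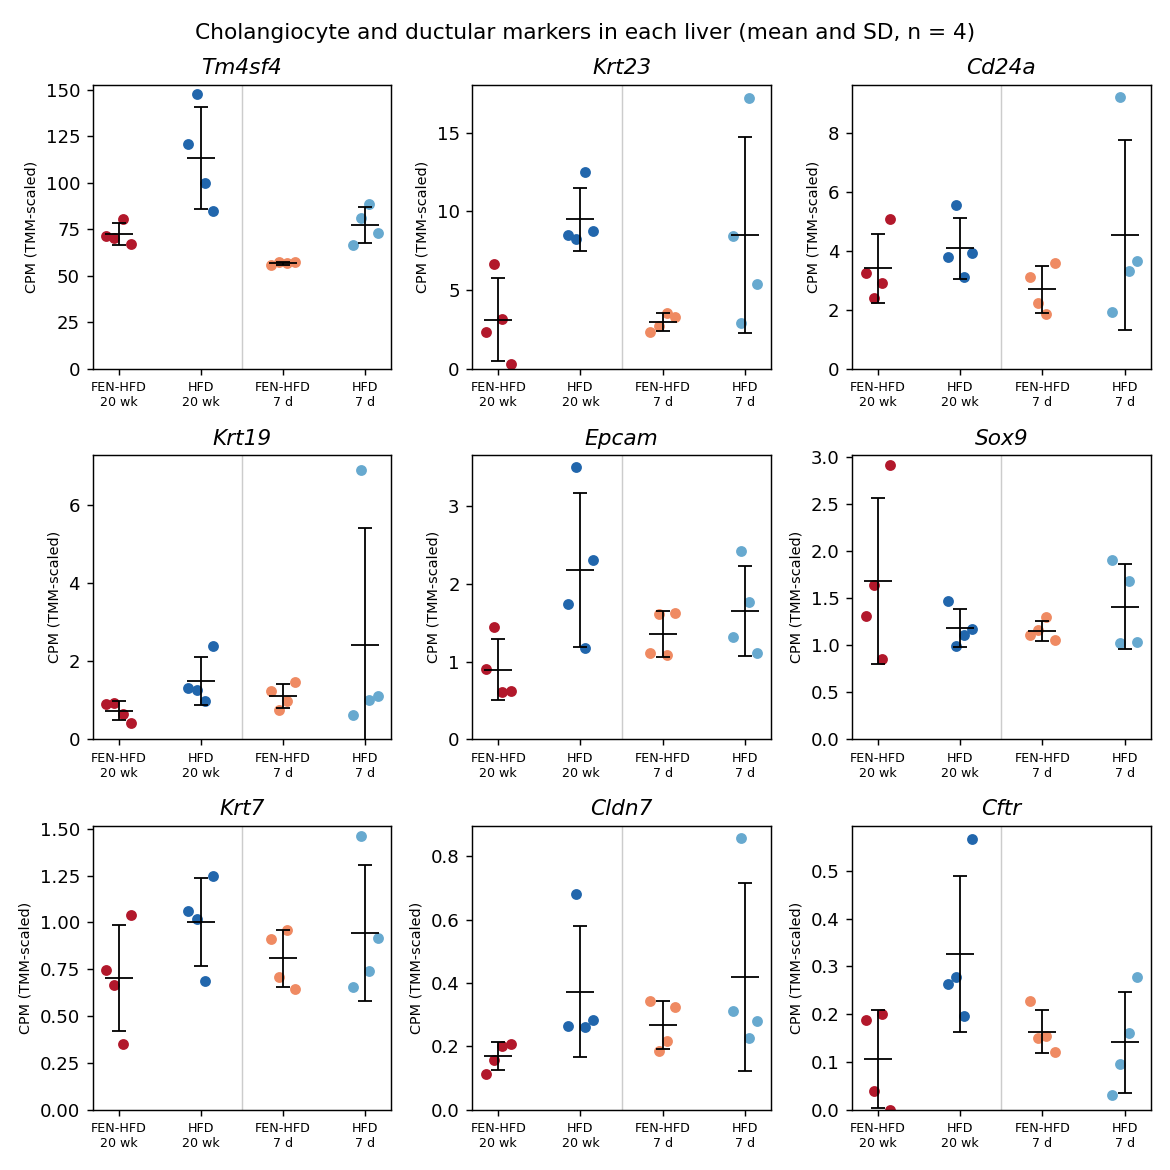
CPM (TMM-scaled, linear axes from 0) of each marker in every liver of the 4 groups, with the mean and SD as black bars (n = 4 per group). At 20 weeks the FEN-HFD and HFD livers do not overlap for Tm4sf4, Krt23, Krt19 and Cldn7, and HFD mouse 143 of the 7-day group is the high point for Krt19 (6.90 CPM) and Cd24a (9.25 CPM).

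Set against all genes, the markers read as follows. edgeR called 0 of the 7 tested markers at 20 weeks, where 1.86% of all 13010 genes tested were called. With an unadjusted p below 0.05 there were 4 of the 7, all with the lower mean in FEN-HFD livers, while 18.5% of all genes reached that level in either direction. DESeq2 called 2 of the 7, Tm4sf4 and Krt23, against 7.81% of all genes. limma-voom called 1 of the 7, Tm4sf4, against 8.67%. The groups did not overlap for 3 of the 7 (Krt19, Tm4sf4 and Krt23, all below HFD), against 12.8% of all genes in either direction, and for 4 of the 9 when Cldn7 is counted. The median log2 difference was -0.65 over the 7 markers, which is the value of Tm4sf4, and 0.01 over all genes tested.

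Markers of other cell types were read at 20 weeks beside the 9. Mesothelial genes had a lower mean in FEN-HFD livers in 5 of 5 tested, with a median log2 difference of -0.65. Their sum was 2.31 to 12.9 CPM in FEN-HFD and 4.64 to 14.5 CPM in HFD livers, with the 12.9 CPM in mouse 29. The mean was likewise lower for 5 of 6 stellate cell genes, with a median of -0.40 and Lrat as the exception. It was higher for 5 of 5 Kupffer cell genes, with a median of 0.61. The Kupffer cell sum was 830 CPM in mouse 29 and 353 to 432 CPM in the remaining FEN-HFD livers, beside 300 to 371 CPM in HFD livers. At 7 days the medians were 0.47 for mesothelial, -0.04 for stellate and -0.15 for Kupffer cell genes. The part of these cell types in the marker differences was not tested.

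After 7 days, all 7 tested markers had a lower mean on FEN-HFD than on HFD, and edgeR again called 0. Tm4sf4 and Krt23 had the smallest p of the markers. For Krt19, Krt7, Epcam and Cd24a the difference was smaller or turned in direction without 1 HFD liver, that of mouse 143.

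Tm4sf4 was at 55.8, 57.3, 56.7 and 57.5 CPM in FEN-HFD livers (mice 61, 62, 65 and 66) and 66.8, 81.3, 88.7 and 72.8 CPM in HFD livers (mice 142, 143, 144 and 146). The 4 FEN-HFD livers lay within 2 CPM of each other and all below the HFD livers. Their means were 56.8 ± 0.785 CPM in FEN-HFD and 77.4 ± 9.59 CPM in HFD livers (SD, n = 4 each). The log2 difference was -0.44 (SE 0.10), with an unadjusted p of 0.000892 and an adjusted p of 0.216 in edgeR, while DESeq2 gave an adjusted p of 0.0136 and limma-voom 0.141.

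Krt23 was at 2.31, 2.69, 3.53 and 3.32 CPM in FEN-HFD livers and 8.43, 2.89, 17.2 and 5.41 CPM in HFD livers. Mouse 143 was the one HFD liver inside the FEN-HFD range. The log2 difference was -1.52 (SE 0.50) with an edgeR adjusted p of 0.725, and leaving out each mouse in turn gave -1.81 (without mouse 143, adjusted p = 0.205) to -0.91 (without mouse 144, the HFD liver with the highest Krt23, adjusted p = 0.795).

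Krt19 was at 1.23, 0.748, 0.991 and 1.46 CPM in FEN-HFD livers and 0.627, 6.90, 0.999 and 1.11 CPM in HFD livers. Apart from mouse 143 the HFD livers lay within or below the FEN-HFD range. The log2 difference of -1.12 (SE 0.75, edgeR adjusted p = 1.00) turned to 0.28 without that mouse. Cd24a was at 3.11, 2.24, 1.86 and 3.60 CPM in FEN-HFD and 1.94, 9.25, 3.32 and 3.66 CPM in HFD livers. Its log2 difference was -0.75 (SE 0.45, edgeR adjusted p = 1.00), and -0.13 without mouse 143.

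Mouse 143 was the highest of its group in 5 of the 9 markers: Krt7, Krt19, Epcam, Cldn7 and Cd24a. Outside the 9, its summed other duct genes (480 CPM) were next to the low end of the 481 to 535 CPM of the other HFD livers. Abundant genes such as Aqp1 (group mean 167 CPM) and Cdh1 (63.5 CPM) weigh most in that sum. It therefore says little about scarce duct genes. Its summed other keratins and claudins were the lowest of the group, at 578 CPM against 682 to 708 CPM. Muc1 (2.74 CPM) and Elf3 (1.37 CPM), a pair of epithelial genes picked after their values were seen, were high in it. Its Sox9 (1.02 CPM) and Krt23 (2.89 CPM) were the lowest of the HFD livers of 7 days, and its summed mesothelial markers were lowest too, at 2.67 CPM. The part of these other cell markers in the Krt19 value was not tested. Without it the log2 difference was 0.09 for Krt7, against -0.21 with it, and -0.07 for Epcam, against -0.30 with it. Sox9 differed by -0.29 (SE 0.25, edgeR adjusted p = 1.00) with it and by -0.42 without it.

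**Figure D3:**
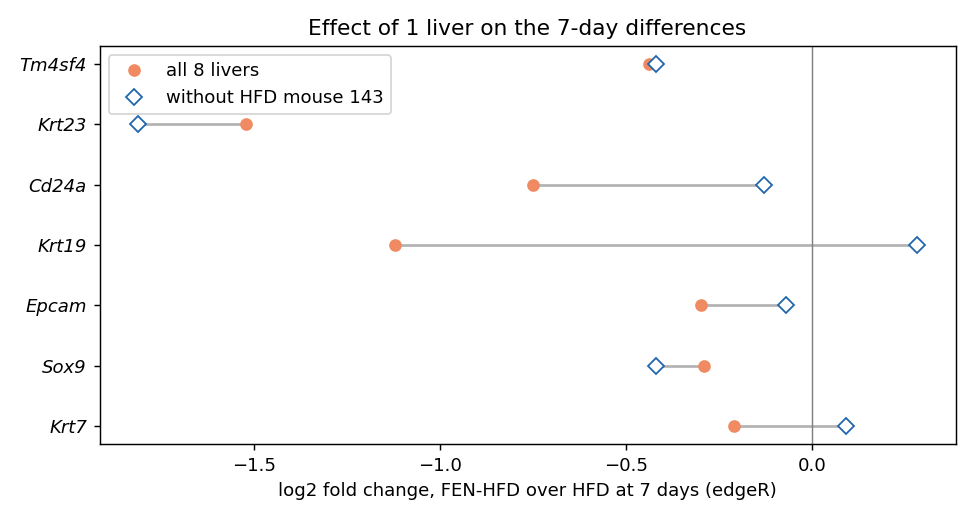
log2 fold change of each tested marker in FEN-HFD over HFD livers at 7 days from edgeR, with all 8 livers (filled circles) and without HFD mouse 143 (open diamonds). Krt19 is at -1.12 with all livers and at 0.28 without that mouse, while Tm4sf4 is at -0.44 and -0.42.

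Cftr and Cldn7 again did not pass the filter. Cftr had 8, 4, 5 and 3 counts in FEN-HFD and 1, 3, 5 and 7 counts in HFD livers at 7 days, and Cldn7 had 12, 5, 7 and 8 counts in FEN-HFD and 10, 27, 7 and 7 counts in HFD livers, where 27 was again mouse 143. Without the filter the edgeR log2 difference was 0.28 for Cftr (SE 0.58) and -0.64 for Cldn7 (SE 0.47), with adjusted p of 1.00 and 0.980.

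Of the 7 tested markers at 7 days, edgeR called 0, against 0.0988% of 13157 genes tested. An unadjusted p below 0.05 was found for 2 of the 7 (Tm4sf4 and Krt23, both with the lower mean in FEN-HFD livers) against 5.08% of all genes, DESeq2 called 1 (Tm4sf4) against 0.725%, and limma-voom called 0 against 0.220%. DESeq2 gave Krt19 no adjusted p here. Tm4sf4 was the 1 marker whose groups did not overlap, against 3.19% of all genes in either direction. The median log2 difference was -0.44 over the 7 markers, which is the value of Tm4sf4, and -0.01 over all genes. Without HFD mouse 143 the differences of Krt19, Krt7, Epcam and Cd24a were smaller or turned in direction. The marker median at 7 days therefore depends on that liver.

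Did the difference between FEN-HFD and HFD livers depend on the length of feeding? No marker passed the test of the difference between durations. The log2 difference of differences (20 weeks minus 7 days) was -0.93 for Epcam (SE 0.50, edgeR adjusted p = 0.623), 0.73 for Sox9 (SE 0.44, adjusted p = 0.663) and -0.20 for Tm4sf4 (SE 0.19, adjusted p = 0.799). For Krt23 it was 0.00 (SE 0.96, adjusted p = 1.00). That SE, which was 0.85 with no filter, is too large to say that the Krt23 difference was alike at both times. It was -0.35 for Krt7, 0.17 for Krt19 and 0.45 for Cd24a, with adjusted p of 0.854 or more, and it turned to -1.23 for Krt19 and -0.16 for Cd24a without HFD mouse 143. With no filter it was -1.66 for Cftr (SE 0.90, adjusted p = 0.727) and -0.55 for Cldn7 (SE 0.71, adjusted p = 0.931). edgeR called 0 of the 7 markers against 0.0299% of 13387 genes. With an unadjusted p below 0.05 the count was 0 of 7 against 8.68%, and DESeq2 called 0 against 0.896% and limma-voom 0 against 0.672%.

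**Figure D4:**
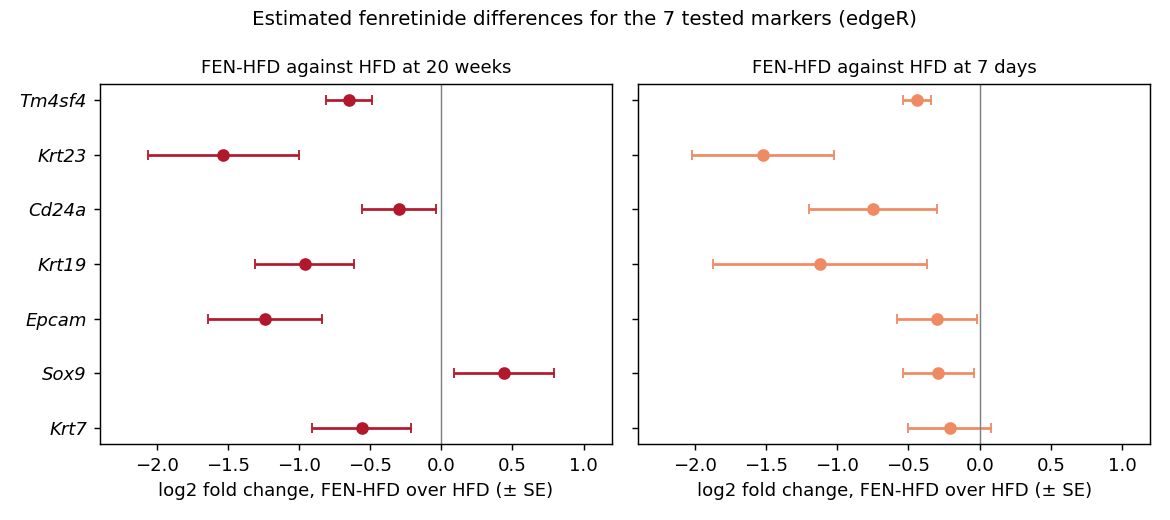
log2 fold change of the 7 tested markers in FEN-HFD over HFD livers from edgeR, with SE as horizontal bars, at 20 weeks (left) and 7 days (right). Tm4sf4 has the shortest bars (SE 0.16 and 0.10), Krt23 is near -1.5 in both panels, and Sox9 is on the positive side at 20 weeks only as an estimate (0.44, SE 0.35).

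The sum of the markers other than Tm4sf4 was 8.94 to 13.9 CPM in FEN-HFD and 18.4 to 21.5 CPM in HFD livers at 20 weeks. At 7 days it was 9.50 to 12.1 CPM in FEN-HFD and 13.8 to 26.1 CPM in HFD livers. Krt23 made up much of this gap. With Krt23 also left out, the sum of the remaining 7 genes was 5.78 to 10.3 CPM in FEN-HFD and 7.52 to 13.3 CPM in HFD livers at 20 weeks. At 7 days that sum was 6.57 to 8.82 CPM in FEN-HFD and 6.80 to 22.0 CPM in HFD livers, so that the groups overlapped at both times. The 22.0 CPM was that of HFD mouse 143, where Krt19 was at 6.90 CPM and Cd24a at 9.25 CPM. The other HFD livers of 7 days had 0.627 to 1.11 CPM of Krt19 and 1.94 to 3.66 CPM of Cd24a. The high end of that range therefore rests on mouse 143.

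Between HFD livers of 20 weeks and of 7 days edgeR called no marker, and Tm4sf4 was again the one nearest to a call. Its log2 difference was 0.54 (SE 0.17, edgeR adjusted p = 0.0923), at a mean of 114 ± 27.5 CPM at 20 weeks and 77.4 ± 9.59 CPM at 7 days (SD, n = 4 each). Mouse 45, at 84.7 CPM, lay within the range of the 7-day livers, and without it the adjusted p was 0.0324. The other 6 had adjusted p of 0.538 or more, with log2 differences of 0.38 for Epcam, 0.15 for Krt23, 0.07 for Krt7 and -0.27 for Sox9. Without 1 mouse it turned as low as -0.08 for Krt7 (HFD mouse 142) and -0.14 for Krt23 (HFD mouse 143). With no filter on low counts Cftr differed by 1.18 (SE 0.61, adjusted p = 0.300), at 6 to 14 counts at 20 weeks and 1 to 7 counts at 7 days, and Cldn7 by -0.18 (SE 0.53, adjusted p = 0.868). Krt19 differed by -0.73 with mouse 143 and by 0.69 without it, and Cd24a by -0.17 with it and 0.46 without it.

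edgeR called 0 of the 7 markers between HFD durations, against 7.51% of 13255 genes. An unadjusted p below 0.05 was found for 1 of the 7 (Tm4sf4, with the higher mean at 20 weeks), against 25.5% of all genes. DESeq2 called 1 (Tm4sf4, adjusted p = 0.0256) against 13.4%, and limma-voom 0 against 9.57%. The median log2 difference was 0.07 over the markers and -0.01 over all genes.

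Between FEN-HFD livers of 20 weeks and of 7 days, Tm4sf4 differed by 0.34 on the log2 scale (SE 0.09, edgeR adjusted p = 0.111), with all 4 livers of 20 weeks (66.9 to 80.7 CPM) above all 4 of 7 days (55.8 to 57.5 CPM). Without mouse 29 the adjusted p was 0.0317. An absence of overlap, in either direction, was found for 6.55% of all genes. edgeR called 0 of the 7 markers against 1.18% of 12949 genes. With an unadjusted p below 0.05 it was 1 of 7 (Tm4sf4) against 9.66%, and both DESeq2 and limma-voom called 1 (Tm4sf4), against 3.12% and 6.89% of all genes. The other 6 tested markers had edgeR adjusted p of 0.682 or more, with log2 differences of -0.54 for Krt19, -0.55 for Epcam, -0.28 for Krt7, 0.14 for Krt23, 0.29 for Cd24a and 0.45 for Sox9. Krt23 turned to -0.51 without FEN-HFD mouse 22. With no filter Cftr differed by -0.47 (SE 0.63, adjusted p = 0.895) and Cldn7 by -0.73 (SE 0.46, adjusted p = 0.762). The fenretinide and duration comparisons share livers, so their values are not independent of each other.

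Other genes of bile duct cells were read from a list of 27, of which 20 were tested in the fenretinide comparisons. At 20 weeks edgeR called 0 of the 20, 7 had the lower mean in FEN-HFD livers and 0 the higher with an unadjusted p below 0.05, DESeq2 called 3 lower and limma-voom 4 lower, beside 1.86%, 18.5%, 7.81% and 8.67% of all genes in either direction. The list's median log2 difference was -0.32. Anxa4, a calcium-dependent membrane-binding protein, had the smallest p, at 47.3 to 54.5 CPM in FEN-HFD and 61.5 to 79.9 CPM in HFD livers (log2 difference -0.44, SE 0.10, edgeR adjusted p = 0.0568). Ehf, an ETS transcription factor of epithelia, was at 0.552 to 0.704 CPM in FEN-HFD and 0.850 to 2.18 CPM in HFD livers (log2 difference -1.28, SE 0.33, edgeR adjusted p = 0.0825). At 7 days edgeR again called 0 of the 20, with 2 higher and 0 lower with an unadjusted p below 0.05, 1 higher by DESeq2 and 0 by limma-voom, beside 0.0988%, 5.08%, 0.725% and 0.220% of all genes, and the median was -0.05.

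Between HFD livers of 20 weeks and 7 days, 3 of 22 tested were called by edgeR, beside 7.51% of all genes, and they are named here after their values were seen. Wfdc2, a secreted protease inhibitor of epithelia, rose (log2 difference 2.82, SE 0.48, edgeR adjusted p = 0.0135), to 8.97 to 30.1 CPM at 20 weeks, against 1.63 to 4.42 CPM at 7 days. Slc10a2, the sodium-dependent bile acid transporter that takes bile acids up from bile into cholangiocytes, rose by 1.02 (SE 0.10, edgeR adjusted p = 0.000867). Cdh1, the epithelial cadherin, which hepatocytes also make, fell by 1.89 (SE 0.30, edgeR adjusted p = 0.00957).

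A further list of 18 held mostly genes of Notch and Yap signalling, which drive duct fate. It also held Tnfrsf12a and Fgf7, which belong to other growth signals. Of the 15 tested, edgeR called 0 in either fenretinide comparison, beside 1.86% of all genes at 20 weeks and 0.0988% at 7 days. At 20 weeks 0 were higher and 2 lower with an unadjusted p below 0.05, and DESeq2 and limma-voom called 2 lower each, beside 18.5%, 7.81% and 8.67% of all genes in either direction. The smallest p belonged to Tnfrsf12a, the receptor of the duct mitogen TWEAK, at 3.12 to 4.27 CPM in FEN-HFD and 4.48 to 14.6 CPM in HFD livers (log2 difference -1.21, SE 0.33, edgeR adjusted p = 0.0957), and to Ctgf, a Yap target, at 2.41 to 5.83 CPM in FEN-HFD and 5.89 to 8.83 CPM in HFD livers (log2 difference -0.96, SE 0.27, edgeR adjusted p = 0.106). At 7 days the counts were 0 by all 3 tools and with an unadjusted p below 0.05. In HFD livers 3 of 16 tested were higher at 20 weeks than at 7 days, beside 7.51% of all genes called in either direction: Jag1, a Notch ligand (log2 difference 0.66, edgeR adjusted p = 0.0150), Wwtr1, which encodes the Yap relative TAZ (0.92, edgeR adjusted p = 0.000529), and Ctgf (1.38, edgeR adjusted p = 0.00860). These were likewise named after their values were seen.

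Of 10 tested keratins and claudins outside the 9, edgeR called 0 in either fenretinide comparison. At 20 weeks 1 was higher and 2 lower with an unadjusted p below 0.05, DESeq2 and limma-voom called 1 lower each, beside 18.5%, 7.81% and 8.67% of all genes in either direction, and the median log2 difference was -0.08. The smallest p belonged to Cldn2, a tight junction protein, at 68.3 to 83.4 CPM in FEN-HFD and 89.4 to 123 CPM in HFD livers (log2 difference -0.47, SE 0.11, edgeR adjusted p = 0.0670), and to Cldn14, another claudin, with a log2 difference of 0.39 (SE 0.13, edgeR adjusted p = 0.165). At 7 days the counts were 0 by all 3 tools and with an unadjusted p below 0.05. Between HFD durations 2 of 11 tested were called, both higher at 20 weeks and named after their values were seen: Cldn2 (log2 difference 0.73, edgeR adjusted p = 0.00619) and Krt8, a keratin of hepatocytes and duct cells (0.96, edgeR adjusted p = 0.0489), beside 7.51% of all genes. Lrat, a retinoid-responsive enzyme of retinol storage that stood on a list of 6 stellate cell markers, was the 1 listed gene called in both fenretinide comparisons, and rose on FEN-HFD by a log2 difference of 0.75 at 20 weeks (edgeR adjusted p = 0.0357) and 0.92 at 7 days (edgeR adjusted p = 0.00334).

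The markers did not vary together from liver to liver in a uniform way. After the mean of each group was subtracted from the log2 CPM, 12 of the 21 pairs of tested markers were positively correlated over the 16 livers, with a median Pearson r of 0.13. Without the libraries of FEN-HFD mouse 29 and HFD mouse 143, 13 of 21 were positive, with a median of 0.18. Among 11975 other genes, the 6 whose group-centred levels were most like the mean of the 7 markers were Ehf, Tspan8, Acyp2, Thoc6, Eps8l1 and Igflr1. Ehf had a Pearson r of 0.78 and a Spearman rho of 0.82 over the 16 livers, and an r of 0.72 over 14. Tspan8 had an r of 0.78 and a rho of 0.74, and an r of 0.69 over 14. The other four had r of 0.73 to 0.76 over 16 livers and 0.63 to 0.71 over 14. These values share library depth and tissue sampling and are given as a description.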

How the data were processed

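Total RNA from frozen liver was depleted of ribosomal RNA and sequenced as paired ends. The authors deposited 1 table of whole-number counts per gene symbol, not normalized. The submitters' processing notes name STAR 2.0, DESeq2 1.6 and mm10; the program that counted reads, its annotation and its use of strand are not given in the sources used here. The labels name a stranded library kit and the paper's methods another.

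Counts were tested with edgeR 4.0.16 in R 4.3.3 (filterByExpr, TMM factors, quasi-likelihood fit and test with robust settings) on the whole table, with Benjamini-Hochberg adjustment over all genes tested and a threshold of 0.05. Pairwise fits held the 2 groups compared, and the test of the difference between durations held all 16 libraries. A log2 difference is the first group minus the second. Its SE in edgeR was taken as the size of the difference over the square root of the quasi-likelihood F statistic. That value is unstable where the difference is near 0. Alternatives were DESeq2 1.42.0, limma 3.58.1 (voom with quality weights), other size factors and filters, a fold threshold of 1.5, and leaving out each mouse. Scripts were tested on simulated data. CPM used TMM factors over all 16 libraries, and total counts (19218230 to 32546829) set the precision: a count of 0 allows up to 3 counts. Exon lengths and positions came from GENCODE M21.

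The 9 markers and the other lists were chosen with earlier results of these data known. All 9 are named in every comparison. From the lists of other duct genes, of signalling genes and of keratins and claudins, the 2 with the smallest p at 20 weeks are named. Lrat is named because it was called in the fenretinide comparisons, and the 6 genes of most similar pattern are also given. Some further genes of the lists are named after their values were seen. The table held 123 of the 127 symbols on the lists, 2 under an older name. The labels do not say whether mice shared a cage or litter, so p-values measure the spread between these mice. The table holds 27 symbols turned into dates and 0 mitochondrially encoded genes.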

Additional observations from a re-analysis of the deposited data

Results flagged for a closer look

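Within a group of 4 livers, 1 liver lay far from the others in 4 of the 36 sets of livers examined (9 markers in 4 groups). For normally spread values, chance alone would mark about 1 in 20 groups in this way. Scarce genes need not follow such a spread, and the sets share livers, so these counts cannot be set against that rate. Muc1, Elf3 and Prom1 were picked from the 27 other duct genes after their values were seen, and their 3 cases among 12 sets cannot be set against chance; over the 9 markers and all 27 other duct genes there were 13 cases in 144 sets. In the HFD group of 7 days, mouse 143 had Krt19 at 6.90 CPM against 0.627 to 1.11 CPM in the other 3 livers, Cldn7 at 0.859 CPM against 0.226 to 0.313 CPM, Muc1 at 2.74 CPM against 0.157 to 0.398 CPM, and Elf3 at 1.37 CPM against 0.119 to 0.226 CPM. In the HFD group of 20 weeks, mouse 28 had Cldn7 at 0.682 CPM against 0.262 to 0.283 CPM, and mouse 33 had Krt23 at 12.5 CPM against 8.24 to 8.73 CPM. In the FEN-HFD group of 20 weeks, mouse 29, the library rich in Rn45s and Lars2, had Elf3 at 0.520 CPM against 0.196 to 0.224 CPM. The causes were not tested.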

How the results depend on the processing

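Over 639 alternative fits of single markers, 607 kept their direction and their side of the threshold, 12 came under it and 20 turned in direction; none was lost from it, since edgeR had called no marker. The count of markers called, 0 in edgeR, was 2 at 20 weeks with DESeq2 (Tm4sf4 and Krt23), 1 with limma-voom and 1 with all 16 libraries in 1 fit (Tm4sf4 in both). At 7 days it was 1 with DESeq2. Between HFD durations it was 1 with DESeq2 and 1 with all 16 libraries in 1 fit, and between FEN-HFD durations 1 with DESeq2 and 1 with limma-voom, Tm4sf4 each time. Leaving out 1 mouse gave 0 to 1 called at 20 weeks, between HFD durations and between FEN-HFD durations, and the 1 was Tm4sf4 without HFD mouse 45, HFD mouse 45 and FEN-HFD mouse 29 in that order.

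The turned values all missed the threshold. With limma-voom, Krt19 was 0.02 at 7 days, 0.44 between HFD durations and -0.72 for the difference between durations, and Cd24a was 0.38 and -0.19 in the last 2. Leaving out each mouse in turn, the 7-day difference ran from -0.36 to 0.09 for Krt7 and from -1.46 to 0.28 for Krt19, with a positive value without HFD mouse 143 in both. Between HFD durations it ran from -0.08 to 0.37 for Krt7, -1.05 to 0.69 for Krt19, -0.14 to 0.76 for Krt23 and -0.42 to 0.46 for Cd24a, and between FEN-HFD durations from -0.51 (without FEN-HFD mouse 22) to 0.45 for Krt23. For the difference between durations it ran from -1.23 to 0.49 for Krt19 and -0.16 to 0.70 for Cd24a, negative without HFD mouse 143. Without both FEN-HFD mouse 29 and HFD mouse 143, an alternative chosen after seeing the data, that difference was -1.10 for Krt19 and -0.39 for Cd24a. A minimum of 10 counts in every library left 3 markers (Sox9, Tm4sf4 and Cd24a) in the comparisons that hold FEN-HFD livers of 20 weeks. Causes were not tested.

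No paired analysis was possible because no mouse number was shared between groups. Depth limits Cftr (0 to 14 counts per library) and Cldn7 (2 to 27 counts), which did not pass the filter on low counts.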
